A study of Mus musculus with 6 samples.

Results

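The IFITM genes *Ifitm1*, *Ifitm2*, *Ifitm3* and *Ifitm10* were followed in CD8 T cells of mice bearing B16-OVA melanoma. These 4 of the 32285 genes of the reference were taken by name, with *Ifitm5*, *Ifitm6* and *Ifitm7* of the same family set aside because they were at or below 0.05 CPM in both tumors and at 0 in both lymph nodes. CPM are the UMIs of a gene per 1000000 UMIs of all genes in the same cells, and a UMI, or unique molecular identifier, counts 1 captured RNA molecule. The 4 genes were chosen for their UMIs in these libraries and for their split by *Tcf7* within tumors. Levels across libraries and across the *Tcf7* split are therefore given as a description, with no test.

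Control mice carried CD8-Cre and Rosa26Tomato, and CD8-IFNγRKO mice carried both of these together with IFNgR1flox/flox. The Cre is driven by a CD8α promoter and acts in mature CD8 T cells, so that the other cells of these mice kept the receptor. Mice of both genotypes were engrafted with B16-OVA, a C57Bl6 melanoma line that expresses ovalbumin, and tumors and draining lymph nodes (LN) were taken at day 12. CD45+ CD3+ CD8+ Tomato+ cells were sorted, cells of 3 mice were pooled, and 1 single-cell RNA library was made per tissue and genotype, with TCR libraries for the 2 tumors. One library per group leaves no spread between replicates, and differences between mice, sorts and libraries cannot be told apart from genotype or tissue.

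IFITM proteins are small membrane proteins with a CD225 domain. IFITM1, IFITM2 and IFITM3 are products of interferon-stimulated genes that hinder the fusion of enveloped viruses with cell membranes, IFITM1 mostly at the cell surface and IFITM3 mostly in endosomes. Both type I interferon and IFNγ can induce them. IFITM10 is a distant, conserved member that is not known as interferon-stimulated.

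The 4 genes lie on mouse chromosome 7. In RefSeq on GRCm38, *Ifitm2* (ENSMUSG00000060591) spans chr7:140954837-140959686, *Ifitm1* (ENSMUSG00000025491) chr7:140967429-140969827 and *Ifitm3* (ENSMUSG00000025492) chr7:141009590-141010744, a stretch of 55908 bases. *Ifitm10* (ENSMUSG00000045777) spans chr7:142325835-142373779, 1315090 bases further on and 2130 bases from *Ctsd*, the gene of a lysosomal protease. No other RefSeq gene overlapped any of the 4. *Ifitm1*, *Ifitm2* and *Ifitm3* are close paralogs, and reads that fit more than 1 of them are not counted by the mapping software, so that their levels are those of reads that tell them apart.

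The promoters of *Ifitm1*, *Ifitm2* and *Ifitm3* are shown because these neighbours took different levels in the same cells. Each runs from 250 bases before the annotated start to 30 after it and is written 5′ to 3′ on the gene's own strand, from RefSeq sequences of GRCm38.p6. All 4 genes were matched in the promoter table, and *Ifitm10* has 3 promoters there. For *Ifitm1* and *Ifitm2* the start lies inside the gene's span, and for *Ifitm3* it is the gene's outermost base. Capitals mark GAAA, any 2 bases and GAAA, a pair of half-sites of the interferon-stimulated response element, and TTC, any 3 bases and GAA, the palindrome of the gamma-activated site. Both were searched on both strands.
Ifitm1, chr7:140967826-140968105, plus strand: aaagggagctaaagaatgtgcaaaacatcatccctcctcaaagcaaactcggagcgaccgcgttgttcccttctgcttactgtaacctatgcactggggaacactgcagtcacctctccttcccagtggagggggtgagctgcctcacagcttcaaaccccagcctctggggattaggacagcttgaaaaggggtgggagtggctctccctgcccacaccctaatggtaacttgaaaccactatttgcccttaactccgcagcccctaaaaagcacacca
Ifitm2, chr7:140955932-140956211, minus strand: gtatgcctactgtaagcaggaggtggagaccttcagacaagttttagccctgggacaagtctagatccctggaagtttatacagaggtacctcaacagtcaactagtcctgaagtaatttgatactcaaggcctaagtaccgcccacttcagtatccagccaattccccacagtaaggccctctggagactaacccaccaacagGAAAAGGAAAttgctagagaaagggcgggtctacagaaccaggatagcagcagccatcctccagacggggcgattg
Ifitm3, chr7:141010715-141010994, minus strand: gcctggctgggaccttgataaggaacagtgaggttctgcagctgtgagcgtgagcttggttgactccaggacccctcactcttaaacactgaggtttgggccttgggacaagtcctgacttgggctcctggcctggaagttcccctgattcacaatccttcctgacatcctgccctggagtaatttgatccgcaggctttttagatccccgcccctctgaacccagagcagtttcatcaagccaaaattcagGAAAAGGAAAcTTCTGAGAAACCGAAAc
*Ifitm3* held GAAAAGGAAA and GAAACCGAAA, beginning 3 and 20 bases after its start, and TTCTGAGAA beginning at base 14, which shares 3 bases with the latter. *Ifitm2* held GAAAAGGAAA, beginning 46 bases before its start. Neither motif was found in the *Ifitm1* window or in the 3 windows of *Ifitm10*. Over all 32851 promoters of 300 bases, 3.44% held the pair of half-sites and 8.30% held the palindrome. A match of letters is a description of the sequence, and no binding was measured.

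After filtering, 7099 control and 8634 CD8-IFNγRKO tumor cells and 6641 control and 6731 CD8-IFNγRKO LN cells were kept, with a median of 6306, 9399.5, 4051 and 3863 UMIs. All 8 CD8 T cell markers were present in every library. This is no check of identity, because the cells were sorted as CD3+ CD8+ and the filters required *Cd2*, *Cd8a* and *Cd8b1*, which are among the 8. The 10 macrophage markers together were at 19.0 and 14.3 CPM in control and CD8-IFNγRKO tumors and 2.84 and 3.57 CPM in LN, and 6 melanoma markers at 2.54 to 3.90 CPM. Other lists were higher in LN. A list of 5 B cell markers summed to 241 CPM for control LN and 250 CPM for CD8-IFNγRKO LN. For control tumor its sum was 7.55 CPM, and for CD8-IFNγRKO tumor 18.7 CPM. A list of 6 fibroblast and endothelial markers reached 49.8 CPM for control LN and 48.5 CPM for CD8-IFNγRKO LN. Whether these UMIs came from other cell types was not tested. Between 51 and 82 barcodes were shared by any 2 libraries, at most 1.23% of the smaller one. *Ifngr1*, the deleted receptor chain, was at 718 CPM in control and 237 CPM in CD8-IFNγRKO tumor cells, and at 182 and 137 CPM in LN. Its UMIs are counted per gene and not by exon, so that they do not measure intact receptor.

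*Ifitm1*, *Ifitm2* and *Ifitm3* were genes of the tumor CD8 T cells and were nearly absent from LN cells, while *Ifitm10* was found at a like level in both tissues. *Ifitm1* was at 155 CPM (95% interval 152 to 158, from 9197 UMIs) in control tumor, 34.2 CPM (33.0 to 35.4) in CD8-IFNγRKO tumor, 0.134 CPM (0.036 to 0.34) in control LN and 1.84 CPM (1.38 to 2.40) in CD8-IFNγRKO LN. *Ifitm3* was at 76.2 CPM (74.0 to 78.5) and 56.5 CPM (54.9 to 58.0) in the tumors and 1.14 and 0.451 CPM in LN. *Ifitm2* was at 59.4 CPM (57.4 to 61.4) and 57.2 CPM (55.7 to 58.7) in the tumors and 0.167 and 0.208 CPM in LN. These intervals are exact Poisson intervals of the UMIs and cover counting error only, and are too narrow for genes whose UMIs crowd into few cells. *Ifitm10* was at 31.3 and 23.1 CPM in control and CD8-IFNγRKO tumors and 28.5 and 28.1 CPM in LN.

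In control tumor the order of the levels was *Ifitm1*, *Ifitm3*, *Ifitm2* and *Ifitm10*, and the counting intervals of neighbours in that order did not overlap. In CD8-IFNγRKO tumor *Ifitm2* and *Ifitm3* came first with overlapping intervals, above *Ifitm1* and then *Ifitm10*. A 5′ library counts about 1 fragment per molecule, so that these levels carry no length term. In both LN *Ifitm10* alone was above 2 CPM. The plot of levels by library shows the 3 clustered genes split by tissue and *Ifitm10* flat.

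**Figure D1:**
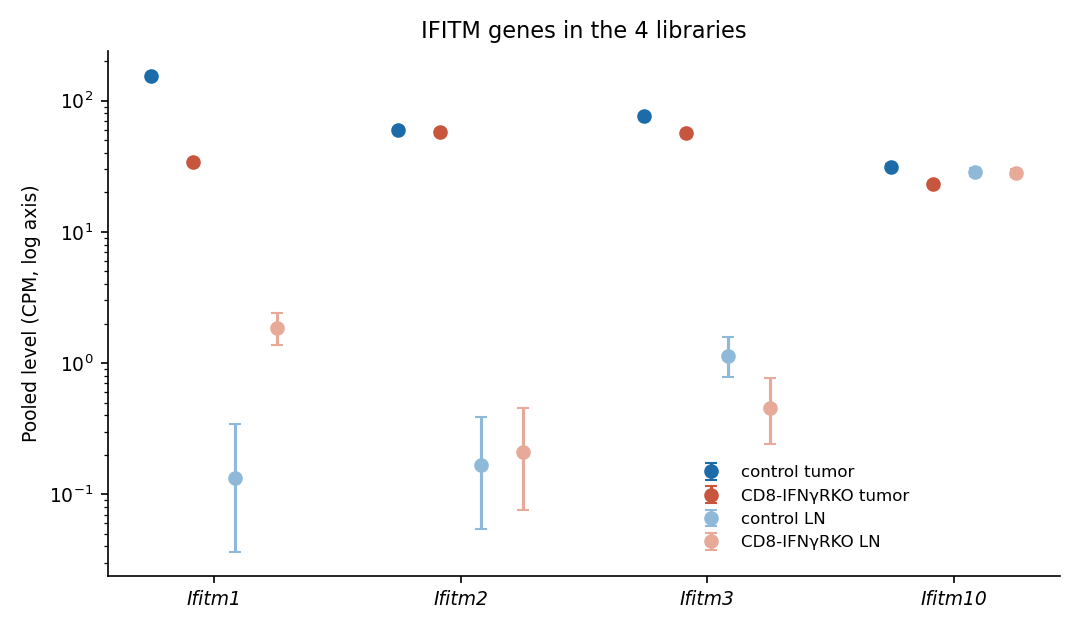
Pooled level of each IFITM gene in the 4 libraries, in CPM on a log axis, with 95% Poisson intervals that cover counting error only. *Ifitm1* stood at 155 CPM in control tumor and 34.2 CPM in CD8-IFNγRKO tumor, and *Ifitm10* between 23.1 and 31.3 CPM in all 4 libraries.

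*Ifitm1* had a UMI in 13.9% of control tumor cells and 4.70% of CD8-IFNγRKO tumor cells, against 2 of 6641 control LN cells and 1 of 6731 CD8-IFNγRKO LN cells. *Ifitm2* had a UMI in 18.8% and 16.6% of tumor cells, and *Ifitm3* in 22.1% and 15.5%. In LN, *Ifitm3* was found in 24 control and 11 CD8-IFNγRKO cells, shares of 0.361% and 0.163%. The LN cells stand in for cells that lack the 3 clustered genes, at a lower depth, and stray RNA within the tumor libraries was not measured. With every cell thinned to 1600 UMIs, which left out 701, 278, 237 and 41 shallower cells, *Ifitm1* was in 8.52% of control and 2.23% of CD8-IFNγRKO tumor cells, *Ifitm2* in 7.74% and 5.74%, *Ifitm3* in 8.67% and 5.49%, and *Ifitm10* in 5.24% and 4.32%.

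Between the tumors, *Ifitm1* was 4.53-fold lower in CD8-IFNγRKO cells (4.35 to 4.71), a log2 ratio of -2.15 with 1 CPM added to both levels. *Ifitm3* differed by -0.43 (-0.48 to -0.37), *Ifitm10* by -0.42 (-0.51 to -0.34) and *Ifitm2* by -0.05 (-0.11 to 0.01) on that scale. The difference of *Ifitm1* was thus the widest of the 4, and it made up most of that in their sum, which was at 322 and 171 CPM. Of 3094 genes with at least 50 CPM in either tumor and 100 UMIs over both, 24 were lower by at least 2-fold, 0.776%, and 15 were higher, 0.485%. The 3 clustered genes were among the 3094, and *Ifitm1* was the 1 member past 2-fold and the 4th lowest of them all. These values were used to choose the genes, and nothing is read from the count.

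Thinned to 1600 UMIs, *Ifitm1* kept its log2 ratio of -2.15, while those of *Ifitm2* and *Ifitm3* fell further, to -0.51 (-0.67 to -0.36) and -0.69 (-0.83 to -0.54). The CD8-IFNγRKO tumor cells held more UMIs per cell, and the difference of *Ifitm2* was not the same over the depth ranges, with log2 ratios of -0.63, -1.60, -0.52 and 0.31 from the shallowest to the deepest. In cells of 3000 to 6000 UMIs *Ifitm2* was at 62.9 CPM in control and 20.1 CPM in CD8-IFNγRKO cells, and in cells of over 12000 UMIs at 53.1 and 66.2 CPM. *Ifitm1* was lower in CD8-IFNγRKO cells in all 4 depth ranges, with log2 ratios of -1.85 below 3000 UMIs, -2.66, -2.44 and -2.09 above 12000. *Ifitm10* fell with depth in both tumors, from 43.1 to 26.0 CPM in control and from 51.6 to 18.1 CPM in CD8-IFNγRKO cells between the shallowest and the deepest range.

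Cycling cells, taken as those with a UMI of *Mki67* or *Top2a*, made up 37.3% of control and 58.5% of CD8-IFNγRKO tumor cells. *Ifitm1* was at 163 CPM in cycling and 144 CPM in other control cells, and at 38.6 and 21.5 CPM in CD8-IFNγRKO cells. The log2 ratio between genotypes was -2.05 in cycling and -2.69 in other cells. For *Ifitm2* it was 0.10 (0.03 to 0.18) and -0.29 (-0.39 to -0.18), so that its sign was not the same in both classes. The part of depth and cycling in these differences was not tested.

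In LN, *Ifitm10* alone had enough UMIs for a close comparison of the genotypes, with a log2 ratio of -0.02 (-0.16 to 0.11). *Ifitm3* had 34 UMIs in control and 13 in CD8-IFNγRKO cells, a log2 ratio of -0.56 (-0.89 to -0.17). *Ifitm1* had 4 UMIs in 2 control cells and 53 UMIs in CD8-IFNγRKO cells, all 53 in 1 cell. That cell held 15077 UMIs in all, 9 of *Cd8a*, 9 of *Cd3e*, 5 of *Ifitm2* and none of *Lyz2* or of MHC class II genes. With that cell left out, 0 against 4 UMIs remained and the log2 ratio of 1.32 became -0.18 (-0.18 to 0.04), so that no genotype difference of *Ifitm1* in LN was detectable. No member reached 50 CPM in LN, where 1 of 2752 genes was higher and 1 lower by at least 2-fold, 0.0363% each.

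Between tissues, *Ifitm1* was 1158-fold higher in control tumor than in control LN (452 to 4251), a log2 ratio of 7.10. *Ifitm2* was 355-fold higher (152 to 1095; log2 5.69) and *Ifitm3* 67.1-fold higher (47.9 to 97.0; log2 5.18). Of 3331 genes, 620 were higher in control tumor by at least 2-fold, 18.6%, and 308 lower, 9.25%. Among these *Ifitm1*, *Ifitm2* and *Ifitm3* were the 20th, 54th and 66th highest. In CD8-IFNγRKO mice, where 20.4% of 3454 genes were higher and 11.2% lower in tumor, the log2 ratios were 3.63 for *Ifitm1*, 5.59 for *Ifitm2* and 5.31 for *Ifitm3*. The 3.63 of *Ifitm1* rests on the 1 LN cell with 53 UMIs. With that cell left out LN held 0 *Ifitm1* UMIs, the ratio was 5.14 with 1 CPM added, and the tumor level was at least 328-fold higher than 3 UMIs in the LN library. *Ifitm10* had log2 ratios of 0.13 (0.02 to 0.25) in control and -0.27 (-0.38 to -0.15) in CD8-IFNγRKO mice, and of 0.52 and 0.21 after thinning.

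*Tcf7* encodes TCF1, the factor that marks stem-like CD8 T cells in tumors and naive cells in LN. A *Tcf7* UMI was found in 372 control and 837 CD8-IFNγRKO tumor cells, 5.24% and 9.69%, and in 85.1% and 84.8% of LN cells. *Tcf7* cells were shallower, with a median of 4562.5 UMIs against 6394 in control tumor and 4521 against 9901 in CD8-IFNγRKO tumor. *Ifitm1* was at 85.3 CPM in *Tcf7* cells and 158 CPM in the other cells of control tumor, and at 4.36 and 36.1 CPM in CD8-IFNγRKO tumor. *Ifitm2* was at 31.5 and 60.7 CPM in control and 17.5 and 59.8 CPM in CD8-IFNγRKO tumor, and *Ifitm3* at 36.6 and 78.1 CPM and at 24.3 and 58.5 CPM.

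The 3 clustered genes were thus lower in *Tcf7* cells of both tumors, and *Ifitm10* was not. Their log2 ratios of *Tcf7* cells over other cells were -0.88 (-1.07 to -0.70), -0.93 (-1.24 to -0.63) and -1.07 (-1.37 to -0.79) in control tumor. In CD8-IFNγRKO tumor they were -2.79 (-3.28 to -2.32), -1.72 (-2.00 to -1.45) and -1.24 (-1.48 to -1.0). *Ifitm10* had -0.01 (-0.33 to 0.30) in control and 0.73 (0.53 to 0.93) in CD8-IFNγRKO tumor, where it was at 37.5 CPM in *Tcf7* cells and 22.2 CPM in the others. After thinning, *Ifitm10* had 0.40 (-0.46 to 1.16) in control and 0.40 (-0.20 to 0.95) in CD8-IFNγRKO tumor, with no detectable difference. The thinned ratios of the 3 clustered genes were -5.07, -2.31 and -2.52 in control and -2.71, -1.92 and -2.12 in CD8-IFNγRKO tumor, from few UMIs of *Tcf7* cells. In control tumor 0.917% of 3055 genes were lower and 1.83% higher in *Tcf7* cells by at least 2-fold, and in CD8-IFNγRKO tumor 1.52% and 2.79% of 3152 genes. *Ifitm3* was past 2-fold in control tumor, and *Ifitm2*, the second lowest of the 3152 genes, and *Ifitm3* in CD8-IFNγRKO tumor. In the latter *Ifitm1*, with its lower ratio of -2.79, stayed below the 50 CPM minimum and was not ranked. *Tcf7* cells were also shallower. In all CD8-IFNγRKO tumor cells of 3000 to 6000 UMIs, *Ifitm2* was at 20.1 CPM and *Ifitm10* at 43.2 CPM, near their levels in *Tcf7* cells. *Ifitm1* at 15.5 CPM and *Ifitm3* at 33.1 CPM were above theirs. In control cells of that range the 3 clustered genes were at 103, 62.9 and 98.8 CPM, all above their *Tcf7* levels. The part of depth in the split was not tested.

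Cells just inside and just outside the split were those with 1 and 0 UMIs of *Tcf7*. In control tumor *Ifitm1* was at 158, 144, 65.7 and 12.3 CPM in cells with 0, 1, 2 and at least 3 *Tcf7* UMIs, the last from 10 UMIs in 2 of 110 cells. In CD8-IFNγRKO tumor it was at 36.1, 9.33, 2.01 and 1.36 CPM. In control tumor the counting intervals of *Ifitm1* at 0 and 1 *Tcf7* UMIs overlapped (155 to 161 and 124 to 167), and those at 2 (47.9 to 87.9) and at least 3 (5.89 to 22.6) lay lower without overlap. The 178 *Ifitm1* UMIs at 1 came from 14 of 172 cells, 103 of them from 3 cells. The 45 at 2 came from 3 of 90 cells, 39 of them from 1 cell. The intervals are too narrow for UMIs held by so few cells, and no graded order is read from them. In CD8-IFNγRKO tumor the interval at 1 (5.61 to 14.6) lay below that at 0 (34.9 to 37.4), and those of the last 2 classes, with 3 UMIs each, overlapped. *Ifitm2* was at 60.7, 47.0, 33.6 and 6.14 CPM in control tumor and at 59.8, 14.2, 19.4 and 19.1 CPM in CD8-IFNγRKO tumor. *Ifitm3* ended at 28.3 CPM in control and 30.5 CPM in CD8-IFNγRKO cells with at least 3 *Tcf7* UMIs, and *Ifitm10* at 38.1 and 39.6 CPM. *Ifitm10* was at 31.3, 25.9 and 32.1 CPM in the classes before the last in control tumor, with overlapping intervals, and at 22.2, 34.4 and 38.8 CPM in CD8-IFNγRKO tumor.

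**Figure D2:**
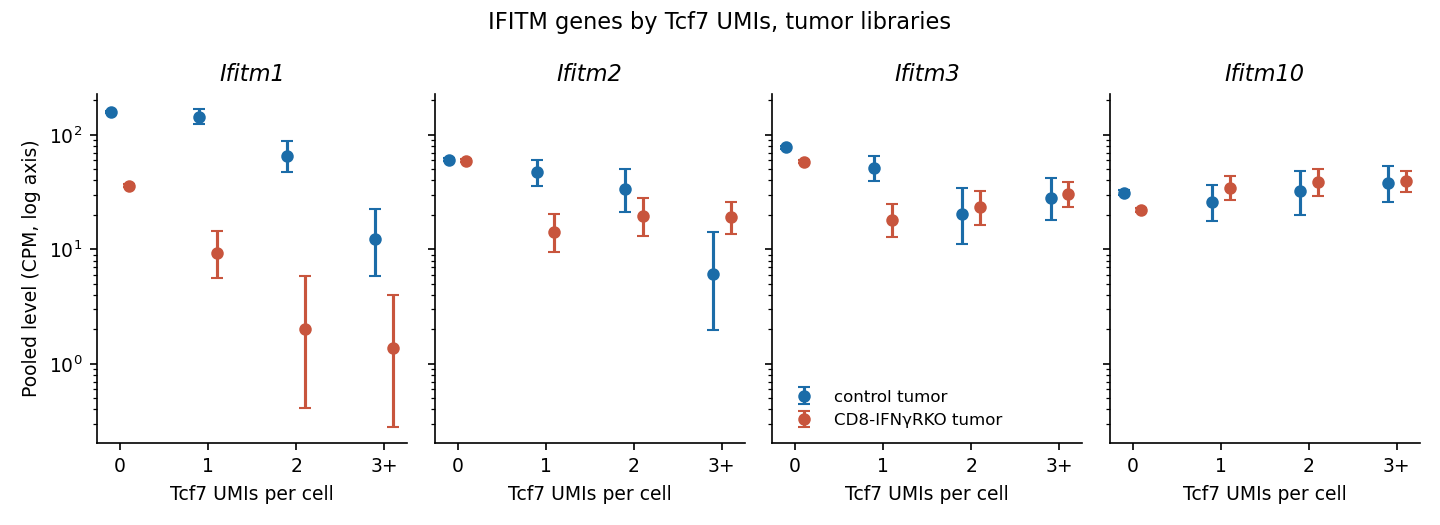
Level of each IFITM gene in CPM on a log axis by the number of *Tcf7* UMIs in the cell, for both tumors, with 95% Poisson intervals for counting error. *Ifitm1* went from 158 to 12.3 CPM in control and from 36.1 to 1.36 CPM in CD8-IFNγRKO tumor, while *Ifitm10* ended at 38.1 and 39.6 CPM.

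Within *Tcf7* cells, *Ifitm1* differed between genotypes by a log2 ratio of -4.01 (-4.53 to -3.50), the lowest of 3012 genes, of which 0.531% were lower and 0.332% higher by at least 2-fold. Within the other cells it differed by -2.10 (-2.16 to -2.04), with 0.774% of 3101 genes lower and 0.58% higher. Taken without the added CPM, the difference between these ratios was -2.16 (-2.76 to -1.56) for *Ifitm1*, -0.83 (-1.25 to -0.41) for *Ifitm2*, -0.18 (-0.55 to 0.20) for *Ifitm3* and 0.77 (0.40 to 1.14) for *Ifitm10*. These intervals cover counting error, and the 233 *Ifitm1* UMIs of control *Tcf7* cells came from 19 cells. Thinned to 1600 UMIs, *Ifitm1* was left in 1 control and 2 CD8-IFNγRKO *Tcf7* cells, too few to give an order. The thinned genotype ratio of *Ifitm10* was -0.32 (-1.28 to 0.69) in *Tcf7* cells and -0.32 (-0.53 to -0.11) in the others. That of *Ifitm2* was -0.10 (-1.81 to 1.80) and -0.49 (-0.64 to -0.33). The unthinned differences of *Ifitm2* and *Ifitm10* between the classes were thus not kept after thinning, where few UMIs of *Tcf7* cells remained.

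*Ifitm1* was not spread evenly over the tumor cells. In control tumor 6115 of 7099 cells had no *Ifitm1* UMI, and the 482 cells with at least 5, 6.79% of all cells, held 89.8% of its UMIs. In CD8-IFNγRKO tumor 158 cells, 1.83%, held 88.1%. The highest cell had 156 *Ifitm1* UMIs in control and 91 in CD8-IFNγRKO tumor. The variance of *Ifitm1* UMIs per cell was 26.1 and 25.9 times the mean, against 5.12 and 7.54 for *Ifitm2*, 6.33 and 9.62 for *Ifitm3* and 1.25 and 1.26 for *Ifitm10*. *Ifitm10* was thus scattered at 1 or a few UMIs per cell, with at most 9.

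**Figure D3:**
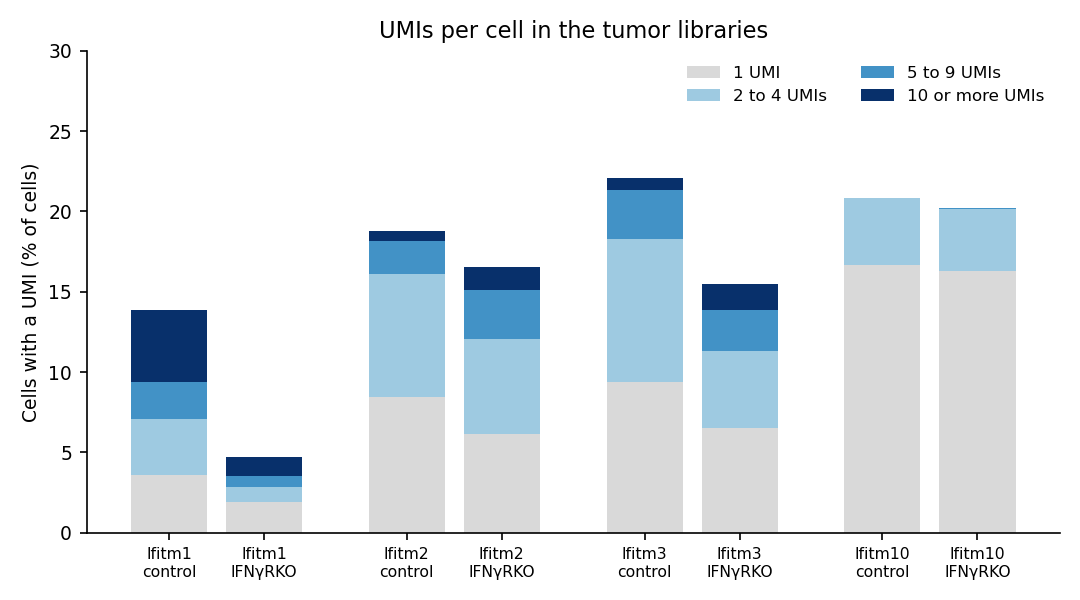
Share of tumor cells, as stacked bars on a linear axis, by their UMIs of each IFITM gene, in control and CD8-IFNγRKO tumors. Cells with at least 5 *Ifitm1* UMIs were 6.79% of control and 1.83% of CD8-IFNγRKO cells, and cells with as many *Ifitm10* UMIs were 1 and 5 cells.

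A cell with an *Ifitm1* UMI held *Ifitm2* or *Ifitm3* more often than a cell without one, and no such difference was detectable for *Ifitm10* after thinning. In control tumor cells thinned to 1600 UMIs, *Ifitm2* was in 23.7% (20.2 to 27.5) of cells with an *Ifitm1* UMI and 6.25% (5.65 to 6.90) of cells without. *Ifitm3* was in 16.0% (13.0 to 19.3) and 8.0% (7.31 to 8.72). In CD8-IFNγRKO tumor the shares were 32.8% and 5.13% for *Ifitm2* and 24.7% and 5.05% for *Ifitm3*. *Ifitm10* was in 5.32% (3.59 to 7.55) and 5.23% (4.67 to 5.83) of control cells with and without *Ifitm1*, and in 2.15% (0.589 to 5.41) and 4.37% (3.94 to 4.84) of CD8-IFNγRKO cells. Without thinning, where cells with *Ifitm1* were deeper, it was in 24.2% (21.5 to 27.0) and 20.3% (19.3 to 21.3) of control cells. All 3 clustered genes were found in 25 of 6398 control and 22 of 8356 CD8-IFNγRKO thinned cells, so that most cells with 1 of them lacked the others at this depth. The intervals are exact Clopper-Pearson intervals over cells and cover counting error only.

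Pooled, the cells rich in *Ifitm1*, *Ifitm2* or *Ifitm3* held more MHC class II RNA, although few of them had 2 or more such UMIs. *Cd74*, *H2-Aa*, *H2-Ab1* and *H2-Eb1* together were at 463 CPM in control cells with at least 5 *Ifitm1* UMIs and 21.3 CPM in cells with none, and at 268 and 16.5 CPM in CD8-IFNγRKO tumor. For *Ifitm2* the same classes were at 1093 and 26.0 CPM in control and 106 and 14.4 CPM in CD8-IFNγRKO tumor, and for *Ifitm3* at 797 and 30.1 CPM and at 135 and 14.9 CPM. The macrophage marker list was at 24.8 and 18.1 CPM in the *Ifitm1* classes of control cells and 15.2 and 14.2 CPM in CD8-IFNγRKO cells, and *Lyz2* was at most 1.88 CPM in any of the *Ifitm1* classes. In the *Ifitm2* classes the macrophage list was at 35.2 and 17.7 CPM in control and 14.7 and 13.8 CPM in CD8-IFNγRKO cells. In those of *Ifitm3* it was at 22.6 and 18.2 CPM in control and 12.2 and 14.1 CPM in CD8-IFNγRKO cells. Of the control cells with at least 5 *Ifitm1* UMIs, 7.47% (36 of 482) had 2 or more MHC class II UMIs, against 2.13% of cells with none. For *Ifitm2* the shares were 10.1% (19 of 188 cells) and 2.17%, and for *Ifitm3* 5.22% (14 of 268 cells) and 2.20%. In CD8-IFNγRKO tumor the shares of the 3 rich classes were 5.06%, 8.03% and 5.85%. The pooled levels are thus no trait of most rich cells. Control cells with at least 5 *Ifitm1* UMIs were deeper, with a median of 11485 UMIs against 6014, and a share past a fixed count rises with depth. With cells of 2 or more MHC class II UMIs left out, the log2 ratio of *Ifitm1* between tumors was -2.12. Whether such cells are doublets, or whether B cells add to this RNA, was not tested.

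Clones were read from the TCR libraries as groups of cells that share, in the alpha and the beta chain, the V gene, the J gene and the CDR3 sequence. A clone was assigned to 4282 control and 5936 CD8-IFNγRKO tumor cells, and 10 control and 21 CD8-IFNγRKO clones had at least 50 cells. The cells of 1 clone come from 1 mouse of the 3 as a rule, so that clone and mouse cannot be told apart. In control tumor *Ifitm1* was at 92.6, 205 and 497 CPM in the 3 largest clones, of 1104, 1009 and 515 cells. The next clones, of 172 to 55 cells, were at 132, 0, 3.11, 0, 159, 0 and 0 CPM. No *Ifitm1* UMI was thus found in 4 of the 10 clones, among them the fifth largest with 153 cells and 1086142 UMIs, where a count of 0 allows up to 1.96% of cells with a UMI by the limit of 3 counts, and 2.38% as the upper bound of the exact 95% interval.

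*Ifitm1* in CD8-IFNγRKO clones was at 15.2 and 57.7 CPM in the largest and the second largest, of 1463 and 1200 cells. Over the 21 clones it ran from 0 to 344 CPM with a median of 7.23, and 2 clones were above 100 CPM, the fifth at 188 CPM and the smallest at 344 CPM from 5 of 54 cells. In control the 10 clones ran from 0 to 497 CPM with a median of 47.9, and 4 were above 100 CPM. The ranges of the genotypes overlapped, and the clones of each library spread more widely than the pooled levels of the 2 libraries.

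The 3 largest clones held 49.95% of the *Ifitm1* UMIs of control tumor and 39.0% of those of CD8-IFNγRKO tumor. Between the 3 largest clones of each tumor the log2 ratio of *Ifitm1* was -2.66 (-2.75 to -2.57). Over the other clones of at least 10 cells it was 0.10 (-0.09 to 0.29), from 33.9 CPM in 1270 control cells and 36.3 CPM in 2436 CD8-IFNγRKO cells. In cells with no clone assigned, 2817 control and 2698 CD8-IFNγRKO cells, *Ifitm1* was at 148 and 35.3 CPM, a log2 ratio of -2.04. Clones of 2 to 9 cells were at 118 and 5.72 CPM, from 202 and 161 cells. Of these cells 8.91% and 1.24% had an *Ifitm1* UMI, with 137 and 7 UMIs in all. Clones of 1 cell had 0 *Ifitm1* UMIs in 182 control cells and 3 in 364 CD8-IFNγRKO cells. The lower *Ifitm1* of CD8-IFNγRKO tumor was therefore seen in the largest clones, and in clones of 2 to 9 cells from few cells with a UMI. For the other clones of at least 10 cells the interval included 0. Cells with no clone assigned lacked a read pair of alpha and beta chains and may belong to any clone, the 3 largest among them. Their lower *Ifitm1* is therefore not a separate finding.

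*Ifitm2* and *Ifitm3* also differed among clones of 1 tumor. *Ifitm3* was at 9.08 CPM in the largest CD8-IFNγRKO clone and 121 CPM in the second largest, 2 clones with nearly the same median of 11535 and 11857 UMIs per cell and 65.3% and 64.8% of cycling cells. *Ifitm2* was at 70.9 and 83.6 CPM in the same clones, so that *Ifitm3* was low in the former without *Ifitm2* being so. In control tumor *Ifitm3* was at 4.60 CPM in the fifth clone and 78.2 to 139 CPM in 7 of the other 9. *Ifitm10* ran from 23.8 to 46.7 CPM over the 10 control clones, the narrowest range of the 4 genes.

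The eighth and the 17th CD8-IFNγRKO clones, of 149 and 71 cells, had the reverse pattern. *Ifitm10* was at 105 and 110 CPM there, against 8.98 to 39.1 CPM in the other 19, while *Ifitm2* was at 3.19 and 0 CPM and *Ifitm3* at 1.60 and 6.26 CPM. Both clones were shallow, with a median of 3211 and 3340 UMIs per cell, and had few cycling cells, 20.8% and 25.4%. The antiviral interferon list was at 3127 and 2718 CPM in them, above its level in any other clone of at least 50 cells. These 2 clones thus combined high levels of antiviral genes with low levels of *Ifitm2* and *Ifitm3*, and *Ifitm1* was at 19.2 and 0 CPM. A *Tcf7* UMI was in 10.1% and 5.63% of their cells. Low *Ifitm2* and *Ifitm3* were not particular to them. In CD8-IFNγRKO clones of 1 cell *Ifitm2* was at 0, *Ifitm3* at 4.01 and *Ifitm10* at 50.4 CPM, and in control ones at 12.1, 17.6 and 39.6 CPM.

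**Figure D4:**
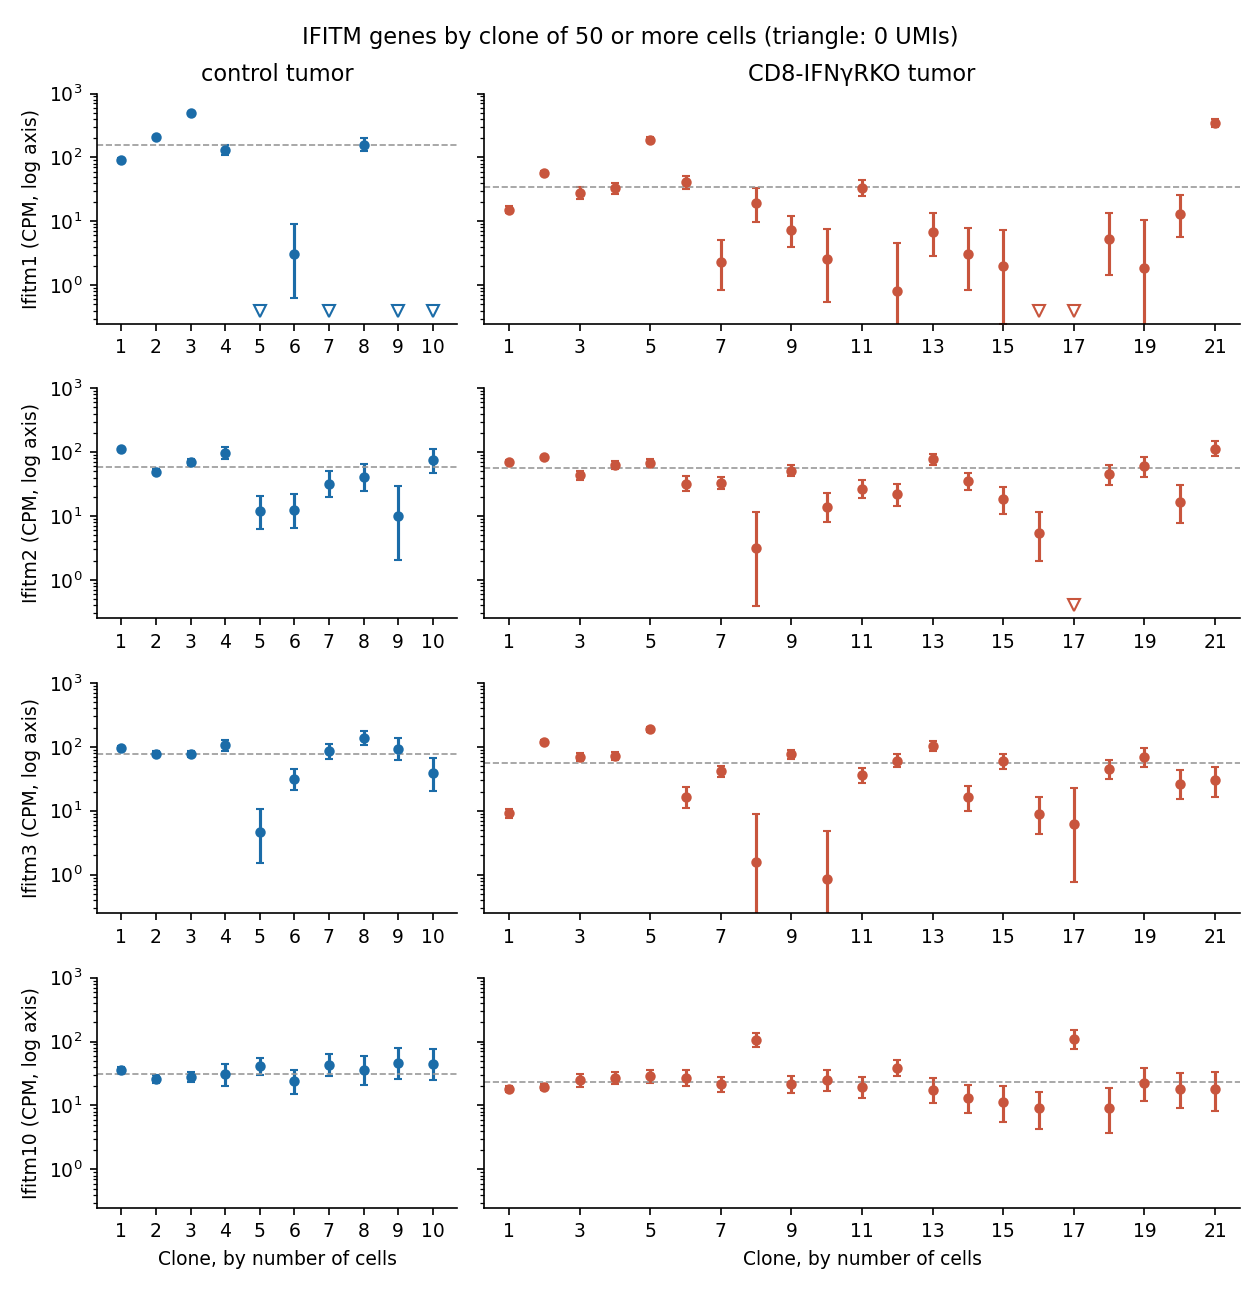
Level of each IFITM gene in CPM on a log axis in the TCR clones of at least 50 cells of both tumors, with 95% Poisson intervals for counting error, some of which run below the axis. Triangles mark clones with 0 UMIs, and dashed lines the level of the whole library; *Ifitm1* ranged from 0 to 497 CPM over the 10 control clones and from 0 to 344 CPM over the 21 CD8-IFNγRKO clones.

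Other interferon-stimulated genes were compared with the IFITM genes by lists, with a minimum of 20 CPM. Of 5802 genes at that minimum, 0.948% were lower and 0.638% higher in CD8-IFNγRKO tumor by at least 2-fold, and the median log2 ratio was 0.02. Of 20 antiviral genes typical of type I interferon, 13 were measured at that level, 11 above and 2 below 0, with a median of 0.27 and none past 2-fold. Among them *Usp18*, which damps interferon signaling, had 0.82, *Bst2*, which tethers virions, 0.70, *Oas3*, a sensor of double-stranded RNA, 0.65, and *Ifit1bl1*, of the IFIT family, -0.86. Of 28 genes of the IFNγ response 25 were measured, 6 above and 19 below 0, with a median of -0.24 and none past 2-fold. *Irf1*, a transcription factor induced by interferons, had -0.74, *Cd274*, the gene of PD-L1, -0.59, *Igtp*, an immunity-related GTPase, -0.52, and *Socs1*, a feedback inhibitor, -0.46.

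With a log2 ratio of -2.15, *Ifitm1* was below every measured gene of both lists, *Ifitm3* lay among the lower genes of the IFNγ response, and *Ifitm2* lay near the median of all genes. Across the *Tcf7* split the antiviral genes and the 3 clustered genes lay mostly on opposite sides of 0. The antiviral list was higher in *Tcf7* cells than in other cells for 12 of 14 genes in control and 17 of 17 in CD8-IFNγRKO tumor, with medians of 0.47 and 0.77, while the medians of all genes were -0.04 and -0.06. Of these, 2 and 6 were past 2-fold, against 1.92% and 2.9% of all genes higher and 0.94% and 1.22% lower. The IFNγ response had medians of 0.11 and 0.24. By contrast, *Ifitm1*, *Ifitm2* and *Ifitm3* were below 0 in the same comparison in both tumors. In LN, all 22 measured genes of the IFNγ response were below 0 in CD8-IFNγRKO cells, with a median of -0.24. Of these, 1 was lower by at least 2-fold, against 0.0179% of 5580 genes lower and 0.0358% higher. *Ifitm10*, the 1 member at 20 CPM in LN, had -0.02.

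**Figure D5:**
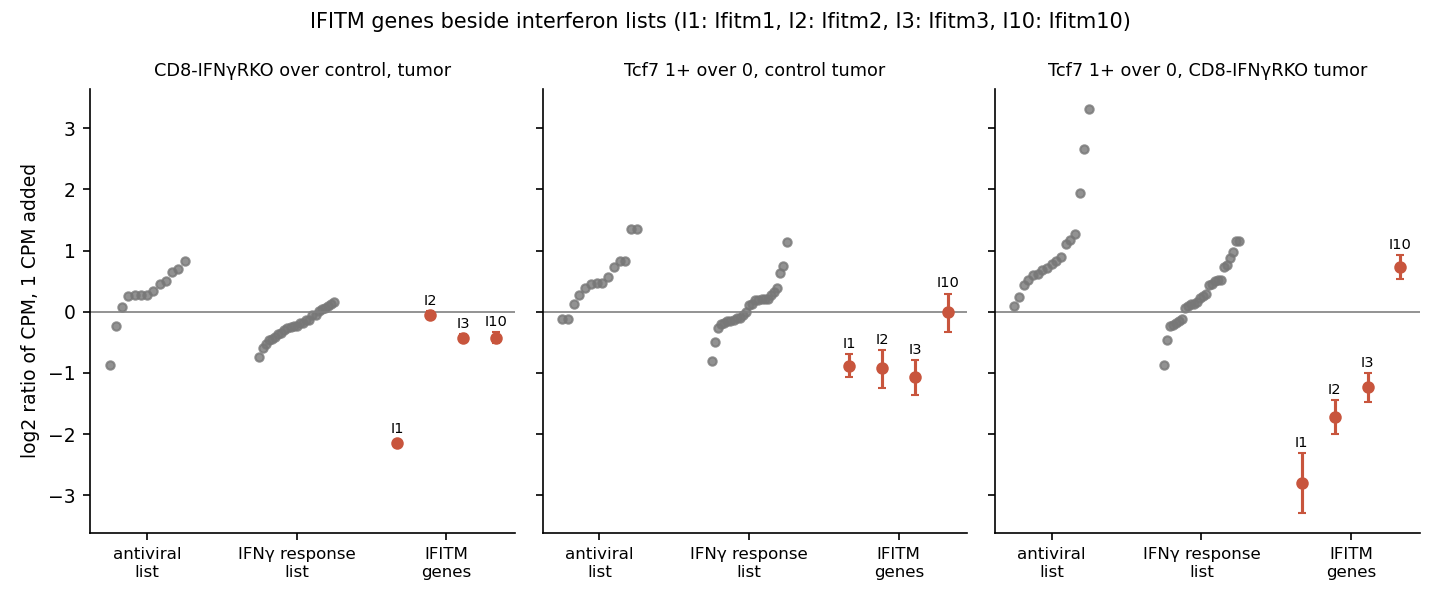
Log2 ratios with 1 CPM added of genes at 20 CPM or more on the antiviral and IFNγ response lists, with the IFITM genes as I1 (*Ifitm1*), I2 (*Ifitm2*), I3 (*Ifitm3*) and I10 (*Ifitm10*). *Ifitm1* lay at -2.15 between the tumors, below both lists, and *Ifitm1*, *Ifitm2* and *Ifitm3* lay below 0 in *Tcf7* cells where the antiviral medians were 0.47 and 0.77.

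Genes of other roles were measured in the same way. All 11 exhaustion genes were lower in CD8-IFNγRKO tumor, with a median of -0.40, led by *Nr4a2*, a factor induced by TCR signals, at -0.99 and *Lag3*, an inhibitory receptor, at -0.82. The 6 measured CD8 T cell marker genes were all lower as well, with a median of -0.39, and the 8 markers summed to 7345 and 5809 CPM in control and CD8-IFNγRKO tumors. All 6 cycling genes were higher, with a median of 0.65. *Prrt1*, another gene with a CD225 domain, was at 20.8 and 5.47 CPM, a log2 ratio of -1.76, and no other CD225 gene on the list reached the minimum. Of 8 measured genes of IFITM cofactors, 4 lay on each side of 0, with *Cd9*, a tetraspanin, at 0.93 and *Zdhhc20*, which palmitoylates IFITM3, at -0.28. The 7 measured neighbours of the cluster had a median of 0.18 and 4 neighbours of *Ifitm10* a median of -0.21, none of them past 2-fold.

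The genes with the pattern most like each member were sought over 8 groups, the 4 libraries each split by *Tcf7*, among 1536 genes of at least 50 CPM in a group and at least a 2-fold range. The 8 groups share tissue and library, so that r is a description. Likest to *Ifitm1* were *Ccl1*, a chemokine, with r of 0.983, *Arl14ep*, *Nfatc1*, the NFAT factor of activated T cells, *Areg*, a growth factor of the EGF family, and *Pofut2*. *Areg* was at 127 CPM in control and 14.2 CPM in CD8-IFNγRKO tumor cells with no *Tcf7*. Likest to *Ifitm2* were *Gldc*, *Stard3nl*, *Capg*, *Ube2a* and the chemokine gene *Ccl3*, all with r of at least 0.998, and likest to *Ifitm3* were *Anxa7*, *Ctla4*, *Tmem256*, *Stk39* and *AW112010*. *Ifitm2* and *Ifitm3* had r of 0.990 with each other, *Ifitm1* 0.922 and 0.915 with them, and *Ifitm10* 0.271 to 0.374 with the 3 others. *Ifitm10* itself lay outside the 1536 genes, at 22.2 to 37.5 CPM over the 8 groups. Its r thus rests on little range and shows no separate pattern.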

How the data were processed

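CD8 T cells sorted as CD45+ CD3+ CD8+ Tomato+ were profiled with 5′ droplet single-cell RNA sequencing, with TCR sequencing of the 2 tumor libraries. The authors mapped reads with Cell Ranger 6.0.0 to mm10, per the labels and the study's methods, and deposited raw UMI counts per gene and cell barcode for barcodes called cells, with no normalization, and counts of UMIs per assembled TCR contig. Reads that map to more than 1 gene are not counted by this software, which lowers the counts of close paralogs.

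By the study's filters, a barcode was kept when it held 200 to 6000 genes and mitochondrial UMIs of no more than 3%. Its highest single gene could hold no more than 20%, and a UMI of *Cd2*, of *Cd8a* and of *Cd8b1* was required. Barcodes with at least 2 UMIs each of 3 or more macrophage markers were then left out, 6 in all. This left 29105 cells. Doublets were kept and no doublet caller was run. Levels are summed UMIs per 1000000 UMIs (CPM) and ratios are log2 of CPM with 1 CPM added. Folds have no CPM added. With 1 library per group no test was made. Intervals are exact 95% intervals (Poisson, conditional binomial, Clopper-Pearson), except those of the differences of genotype ratios between *Tcf7* classes. The latter are normal 95% intervals on the log scale. All intervals cover counting error only. Depth ran from 28841136 to 93969472 UMIs per library, at which 3 UMIs are 0.104 and 0.032 CPM. Shares of cells were also taken from cells thinned to 1600 UMIs.

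The background of a comparison was every gene with at least 50 CPM in either group and 100 UMIs over both, without 258 TCR segments, and a gene was called past a 2-fold ratio; gene lists used a minimum of 20 CPM. From each list up to 4 genes with the largest ratio between tumors were named, and for each member of at least 50 CPM in a group the 5 genes with the most alike pattern. The 2 antiviral genes of the list that are not reported here were not analysed. The members and lists were chosen with earlier results of these data known, and the analyses of clones and MHC class II and their alternatives were chosen after seeing the data. Promoter sequences and positions are from RefSeq tables. All columns used were mapped to samples by their files. The ratio intervals alone were checked on simulated Poisson counts, which lack the wider spread between cells seen for *Ifitm1*, *Ifitm2* and *Ifitm3*. The work was done with scipy 1.17.1, numpy 2.4.6, pandas 2.3.3 and matplotlib 3.10.9 in Python 3.11.15.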

Additional observations from a re-analysis of the deposited data

Results flagged for a closer look

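The genotype ratio of *Ifitm1* took opposite signs in the 2 tissues, -2.15 in tumor and 1.32 in LN on the log2 scale, a gap of -3.47. The LN value rests on 1 cell with 53 UMIs, and the difference was not tested. The tissue ratio of *Ifitm10* took opposite signs in the 2 genotypes, 0.13 in control and -0.27 in CD8-IFNγRKO mice, a gap of 0.40, and after thinning to 1600 UMIs both were above 0, at 0.52 and 0.21. This difference was not tested either.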

How the results depend on the processing

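No paired analysis was possible because there is 1 library per group and no replicate number. Of 304 values of single genes under an alternative, 217 stayed within the counting interval of the reported value, and 24 had the other sign. Of these 24, 20 belonged to ratios below 2-fold, all of *Ifitm10* and of *Ifitm2* between LN, and the other 4 were of *Ifitm1*. *Ifitm1* between tumors took a log2 ratio of 1.44 in clones of 1 cell, from 3 UMIs against 0. *Ifitm1* between LN took -0.22 without the 8% of cells with most UMIs, -0.047 without the top *Ifitm1* cell of each library and -0.18 without that of CD8-IFNγRKO LN alone. *Ifitm1* of CD8-IFNγRKO tumor over LN (3.63) was 5.14 without this last cell, 5.17 without the 8% deepest cells, 4.39 with each cell weighted alike and 4.19 after thinning. *Ifitm1* between tumors (-2.15) moved to -1.77 without the 3 largest clones and to -1.03 with clones of at least 10 cells weighted alike. The cells left without the 3 largest clones include those with no clone assigned, 2817 of 4471 control and 2698 of 5659 CD8-IFNγRKO cells. These may belong to the same clones, so that this alternative, here and for the sum below, does not remove those clones fully. Among assigned clones of at least 10 cells outside the 3 largest, the *Ifitm1* ratio was 0.10. The sum of the 4 genes kept its sign throughout in the tumor, tissue and *Tcf7* comparisons. Between tumors (-0.91) it was -0.87 with 10 CPM added, -1.05 after thinning to 1600 UMIs, -0.85 without cells holding any macrophage marker UMI, -1.02 with each cell weighted alike, -0.77 without the 3 largest clones, -0.30 in clones of 1 cell and -0.73 with clones weighted alike. Tumor over LN in control (3.38) was 3.05 with 10 CPM added, 3.11 with TCR, heat shock, ribosomal protein and mitochondrial genes left out of the total, 3.53 after thinning, 3.49 without the 8% deepest cells and 3.52 with each cell weighted alike; in CD8-IFNγRKO (2.45) the values were 2.16, 2.20, 2.56 and 2.59 for the former 4. *Tcf7* cells over others in control tumor (-0.83) were at -1.05 with all deposited barcodes, -2.10 after thinning, -1.19 with each cell weighted alike, -1.5 with at least 2 *Tcf7* UMIs and -0.63 without the 3 largest clones. In CD8-IFNγRKO tumor (-1.07) they were at -0.75 with all barcodes, -1.31 after thinning, -1.22 without the 8% deepest cells and -1.25 without MHC class II cells. The cause of these shifts was not tested. With a minimum of 20 and 200 CPM in place of 50, the genes past 2-fold were 92 and 15 between tumors (39), 1609 and 291 (928) and 1855 and 326 (1094) between tissues in control and CD8-IFNγRKO, and 167 and 21 (84) and 246 and 34 (136) by *Tcf7*, since fewer or more genes were counted; between LN 200 CPM left 0 of 2. The fewest UMIs stood behind the LN values of *Ifitm1*, *Ifitm2* and *Ifitm3* and the *Tcf7* cells of the tumors.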

Other observations

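Barcodes set aside by the macrophage marker rule held more *Ifitm3* than the kept cells of either tumor. In the 4 such control tumor barcodes that passed the other filters *Ifitm3* was at 1281 CPM (1010 to 1604, from 76 UMIs), *Ifitm2* at 607 CPM and *Ifitm1* at 152 CPM, and in the 2 CD8-IFNγRKO ones *Ifitm3* was at 2444 CPM (1882 to 3121). Macrophage-rule barcodes with no *Cd3e* UMI, 5 in control and 3 in CD8-IFNγRKO tumor, had *Ifitm3* at 3951 and 7196 CPM and no *Ifitm1* UMI. For *Ifitm1* these counts of 0 allow up to 126 and 781 CPM as exact 95% upper bounds, the latter far above the 34.2 CPM of kept CD8-IFNγRKO cells, so that no contrast of *Ifitm1* is shown there.

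Split by the summed UMIs of the antiviral list, *Ifitm3* and *Ifitm1* took different courses in control tumor. In cells with 0, 1 to 4 and at least 5 antiviral UMIs, *Ifitm3* was at 47.0, 61.1 and 87.1 CPM and *Ifitm1* at 210, 164 and 145 CPM. In CD8-IFNγRKO tumor *Ifitm3* was at 16.1, 36.1 and 61.2 CPM and *Ifitm1* at 18.9, 33.0 and 34.6 CPM. The classes also differ in depth, and its part in these levels was not tested.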
